A study of Mus musculus with 4 samples.

Results

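The genes described here are the G1 cyclins and Cdk inhibitors: the D cyclins Ccnd1, Ccnd2 and Ccnd3, the E cyclins Ccne1 and Ccne2, the D cyclin kinases Cdk4 and Cdk6, and the inhibitors Cdkn1b, Cdkn2c and Cdkn2d. They were chosen by name, as the rows of the count tables whose Ensembl identifier belongs to these symbols, and all 10 were found among the 37140 genes listed in all 4 tables. The inhibitors Cdkn1a and Cdkn1c were left out of the set by its definition. The rule uses no measured value.

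RNA-seq was done on hematopoietic stem cells (HSCs) sorted from the tibiae, femora and humeri of C57Bl6 mice, with 1 library for each of 4 groups. By the study's methods, HSCs were lineage-negative marrow cells that carried cKit, Sca1 and CD150 but not CD48. The CD41low/CD9low HSCs were HSCs with little CD41 and CD9, surface proteins that are also high on megakaryocyte precursors. The methods name no selection of the HSCs by CD41 or CD9, whereas the study's results text calls the sequenced HSCs CD41+/CD9+. Each population was taken from mice labelled Gfi1b WT and Gfi1b KO. The study's methods name the KO mice as Rosa-Cre Gfi1b fl/fl and the controls as Rosa-Cre Gfi1b wt/fl, so that controls carried a floxed allele as well, whereas the series' design text describes flox/flox mice with or without ROSA-Cre. The genotype labels name Gfi1b with WT or KO, while the sample titles write Gfi1, and the libraries are taken here by the genotype labels. In the methods both genotypes received tamoxifen, which activates the ubiquitous Rosa-driven Cre, and marrow of several mice was pooled per genotype before the sorts. Gfi1b encodes a transcriptional repressor of HSCs, megakaryocytes and red cell precursors. The age of the mice is not given in the sources used here.

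D cyclins are made when a cell receives growth signals and bind Cdk4 or Cdk6; these kinases phosphorylate the Rb family proteins, which then release E2F factors. E cyclins act later in G1 with Cdk2 and are themselves E2F targets. The INK4 proteins p18 (Cdkn2c) and p19 (Cdkn2d) block Cdk4 and Cdk6, while p27 (Cdkn1b) blocks Cdk2 complexes and also binds those of Cdk4 and Cdk6. In HSCs, most of which rest in G0, low Cdk6 is known to mark dormant cells, and p27 and p18 are known as brakes on entry into cycle.

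Promoter sequence from RefSeq (GRCm38.p6) was held for 7 of the 10 genes. It was missing for Ccnd1, Ccnd2 and Ccne2, whose promoters were therefore not searched for any motif. The stretches printed are those of Cdk6 and Ccne1, which lay past a ratio cutoff in opposite directions in HSCs, and of the inhibitor Cdkn1b. Each runs 5′ to 3′ on the strand of the gene and ends at the RefSeq start or at the first base annotated as an exon of the gene, whichever comes first: chr5:3343643-3343731 for Cdk6 (+ strand), chr7:38107535-38107740 for Ccne1 (- strand) and chr6:134920151-134920400 for Cdkn1b (+ strand). Capitals mark matches, on either strand, to the letters GGGCGG, a GC box, or to those of a box named for its letters, CCAAT.
Cdk6: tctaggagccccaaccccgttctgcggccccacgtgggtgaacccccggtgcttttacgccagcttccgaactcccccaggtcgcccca
Ccne1: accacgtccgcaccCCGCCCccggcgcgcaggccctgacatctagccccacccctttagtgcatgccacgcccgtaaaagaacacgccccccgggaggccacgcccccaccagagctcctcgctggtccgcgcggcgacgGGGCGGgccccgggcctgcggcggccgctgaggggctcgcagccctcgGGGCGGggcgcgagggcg
Cdkn1b: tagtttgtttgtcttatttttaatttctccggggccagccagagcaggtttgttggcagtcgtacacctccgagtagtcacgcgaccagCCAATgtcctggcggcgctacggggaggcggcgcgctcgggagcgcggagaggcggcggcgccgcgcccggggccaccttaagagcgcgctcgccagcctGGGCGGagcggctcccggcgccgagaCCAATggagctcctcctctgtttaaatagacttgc
The full 250 bases before each start were searched on both strands for short forms of 6 motifs, and none of the matches named here overlapped another. GC boxes occurred in the windows of Ccne1 (4 matches, of which 3 lie in the stretch printed) and Cdkn1b (1 match), against 32.7% of 32851 promoters of this length, and CCAAT boxes in that of Cdkn1b (2 matches), against 33.8%. The window of Cdk6 held neither and had a TATA box (TATAAA) that begins 103 bases before the start, a match found in 12.4% of promoters and lying outside the stretch printed. This window lies inside the annotated Cdk6 gene, which begins at chr5:3341485, and 57 of its bases are in exons of Cdk6. None of these 3 windows held the E2F forms TTTCCCGC, TTTCGCGC, TTTGCCGC or TTTGGCGC (1.86% of promoters), the TCF/LEF form CTTTGAT, also searched with its last letter changed as CTTTGAA (7.48% of promoters for both forms), or the core AATCAC of Gfi1 and Gfi1b sites (9.14%). Among the other genes with a window, that of Cdk4 held CTTTGAT on the opposite strand, beginning 52 bases before the start.

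The libraries held between 12732079 and 50781007 counts on genes, so that 3 counts corresponded, scaled by library total, to between 0.0591 and 0.236 CPM, and every gene of the set had at least 102 counts in every library. Gfi1b (chr2:28609450-28621982, on GRCm38 as all coordinates here) had 9256 counts in HSC WT, 49910 in HSC KO, 611 in CD41low/CD9low HSC WT and 9741 in CD41low/CD9low HSC KO. These are counts over the whole gene, in which exons removed by Cre and exons left in place are added up, so they do not check the labels. WT and KO stand throughout for the libraries with these labels. HSC markers were present in all libraries, with none of the 10 at 0 and a summed level between 1110 and 1437 TPM (counts per length of exon scaled to the same sum in every library). Lymphoid markers summed to between 46.1 and 58.9 TPM, of which Cd79b alone made up between 41.2 and 56.7 TPM. Cd79a, Ebf1, Pax5, Cd3e, Cd3g and Rag1 were at 0 in both CD41low/CD9low libraries, so this sum is mostly a reading of Cd79b. Other cell types' markers differed between libraries: the 10 megakaryocyte and platelet markers summed to 1664 and 2027 TPM in HSC WT and KO against 357 and 461 TPM in the CD41low/CD9low libraries, where Gp6 was at 0 in both and Gp1bb in WT. Neutrophil and granulocyte precursor markers summed to 3520 TPM in CD41low/CD9low HSC WT and 898 TPM in CD41low/CD9low HSC KO, and all 10 lay below a KO/WT ratio of 0.6 there. Erythroid markers summed to 458 and 64.5 TPM in the same libraries, with Car1 at 0 in KO. The part of these differences in the results below was not tested. In such bulk samples fewer cells that make an RNA and less of it per cell cannot be told apart.

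The KO/WT ratio of a gene is the ratio of its normalised counts in the KO and WT library of the same population. With 1 library per group it has no replicate check, and its 95% interval (exact Clopper-Pearson) covers counting error only. A ratio above 1.5 or below 0.6 is called past the cutoff, as a rule of size and not of significance. Of the 10 genes, 1 was above 1.5 in HSCs (Cdk6), against 14.1% of the 15910 genes counted, and 1 was below 0.6 (Ccne1), against 10.3%. In CD41low/CD9low HSCs 0 genes were above 1.5, against 13.5% of 14844 genes, and 1 was below 0.6 (Ccnd1), against 12.0%. The shares of the set past a cutoff thus did not exceed those of all genes counted. A smaller share passed among genes with at least 500 counts in either library: 713 above and 250 below of 10015 in HSCs. In CD41low/CD9low HSCs these were 239 and 50 of 7621. Beside these, Cdk6 in HSCs and Ccnd1 in CD41low/CD9low HSCs made larger shares of the set, each on 1 gene. Ccne1 did not reach 500 counts in either population, nor did Ccne2 in CD41low/CD9low HSCs. In HSCs 7 of 10 genes lay below a ratio of 1, against 49.98% of all genes. After a correction for exon length this was 6 of 10. In CD41low/CD9low HSCs 6 of 10 did, against 48.96%. The genes differ widely among themselves, and they are described below by role.

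**Figure D1:**
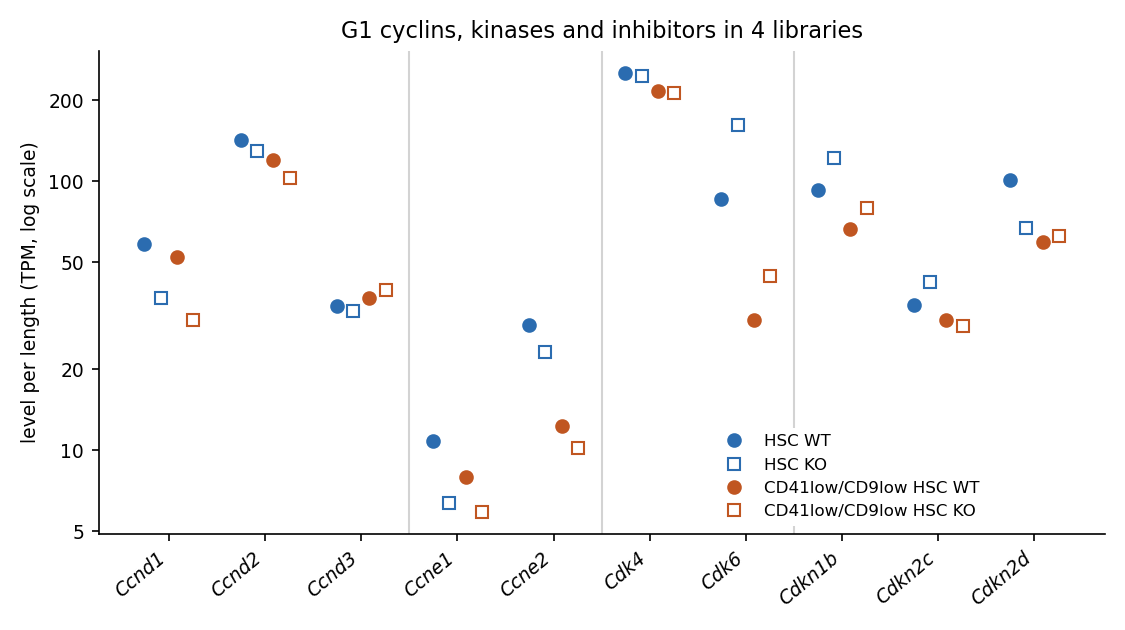
Level of each gene per length (TPM, log scale) in the 4 libraries, 1 point per library, with vertical lines between D cyclins, E cyclins, kinases and inhibitors. Cdk4 is the highest and Ccne1 the lowest in each library, and Cdk6 lies higher in KO (open squares) than in WT (filled circles) of both populations.

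The order of levels per length had fixed ends. Cdk4 was the highest of the 10 genes in all 4 libraries, Ccne2 the ninth and Ccne1 the lowest. Cdk4 was at 253, 246, 217 and 212 TPM in HSC WT, HSC KO, CD41low/CD9low HSC WT and CD41low/CD9low HSC KO (the order of libraries in all that follows). In HSC WT it lay above 97.1% of the protein-coding genes in all 4 tables that reached 10 counts in any library. Ccne1 was at 10.8, 6.36, 7.93 and 5.88 TPM. Between these ends the order moved with genotype and population, most of all for Cdk6, which ranked 5, 2, 7 and 5. Without replicates the spread of a level within a group is unknown, so neighbours in this order are not claimed to differ.

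Among the D cyclins, Ccnd1 was lower in KO than in WT of both populations, Ccnd2 a little lower and Ccnd3 close to equal. Ccnd1 (cyclin D1, chr7:144929931-144939925, - strand) had 4181 counts in HSC WT, 2116 in HSC KO, 1190 in CD41low/CD9low HSC WT and 1021 in CD41low/CD9low HSC KO. Its levels were 58.2, 36.9, 52.3 and 30.6 TPM. Both WT libraries were thus higher than both KO libraries, and within a genotype the populations were close, with a CD41low/CD9low to HSC ratio of 1.09 [1.02 to 1.16] in WT and 1.01 [0.934 to 1.09] in KO. The KO/WT ratio was 0.625 [0.593 to 0.658] in the HSC pair and 0.572 [0.526 to 0.622] in the CD41low/CD9low pair, on either side of the cutoff of 0.6 with intervals that overlap. The ratio in HSCs divided by that in CD41low/CD9low HSCs was 1.09 [0.990 to 1.21].

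The genotype effect shared by both populations was assessed in edgeR by a quasi-likelihood fit to the 4 libraries (population and genotype as terms, 1 residual degree of freedom, p-values adjusted over 16262 genes by Benjamini-Hochberg). Both populations may come from the same pools of marrow, so this test takes the disagreement between populations as its error and holds no spread between mice. Cyclin D1 was lower in KO by a log2 difference of -0.75 (SE 0.17, adjusted p = 0.000915), in a fit that called 1.19% of genes lower and 1.62% higher. In that fit the estimated prior degrees of freedom were infinite, which gives a gene's own spread no weight. With edgeR's filterByExpr in place of the 10-count minimum they were 10.3, and the adjusted p of Ccnd1 was 0.0777, which did not pass 0.05. That filter, added after the data were seen, called 0.115% of genes lower and 0.319% higher.

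Ccnd2 (cyclin D2, chr6:127125162-127152193) was the most abundant D cyclin at 143, 129, 119.6 and 103 TPM, or 20493, 14803, 5440 and 6878 counts. Each KO library was below its WT library, with KO/WT ratios of 0.892 [0.873 to 0.911] and 0.843 [0.813 to 0.874], and the shared effect did not pass the test (log2 difference -0.21, SE 0.15, adjusted p = 0.718). Ccnd3 (cyclin D3, chr17:47505051-47599691) was at 34.4, 32.9, 36.8 and 39.4 TPM. Its KO/WT ratios were 0.942 [0.902 to 0.985] and 1.05 [0.984 to 1.12], so the populations lay on opposite sides of 1. Relative to Ccnd2, Ccnd1 was lower in KO of both populations: per length, Ccnd1 was 0.408 of Ccnd2 in HSC WT and 0.286 in HSC KO, and 0.437 and 0.297 in the CD41low/CD9low libraries. Ccnd1 made up 24.7%, 18.5%, 25.1% and 17.7% of the summed D cyclin level, which was 235, 199, 209 and 173 TPM. The share of Ccnd3 was 14.6%, 16.5%, 17.6% and 22.8%.

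The E cyclins were lower in KO of both populations, though neither passed the test. Ccne1 (cyclin E1, chr7:38097984-38107534) had 440, 206, 102 and 111 counts, the fewest of the set. Its KO/WT ratio was 0.578 [0.487 to 0.683] in the HSC pair and 0.726 [0.549 to 0.959] in the CD41low/CD9low pair, and the shared log2 difference was -0.64 (SE 0.43, adjusted p = 0.706). Ccne2 (cyclin E2, chr4:11191351-11204779) was at 29.1, 23.2, 12.3 and 10.2 TPM. Its KO/WT ratios were close in size in both populations, 0.784 [0.723 to 0.850] and 0.812 [0.673 to 0.980], with a shared log2 difference of -0.33 (SE 0.25, adjusted p = 0.783). The summed E cyclin level was 39.9, 29.5, 20.2 and 16.0 TPM, of which Ccne1 made up 27.1%, 21.5%, 39.3% and 36.6%.

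The kinases Cdk4 and Cdk6 behaved differently. Cdk4 (chr10:127063534-127067920) had KO/WT ratios of 0.955 [0.930 to 0.980] and 0.958 [0.917 to 1.001], within 5% of WT in both populations, though with the correction for exon length described below the ratio in HSCs was 1.02. Cdk6 (chr5:3341485-3531008) had 18306 counts in HSC WT, 27580 in HSC KO, 2064 in CD41low/CD9low HSC WT and 4421 in CD41low/CD9low HSC KO. Its levels were 85.8, 162, 30.5 and 44.5 TPM, so each KO library was above its WT library and both HSC libraries above both CD41low/CD9low libraries. The KO/WT ratio was 1.86 [1.83 to 1.90] in the HSC pair and 1.43 [1.36 to 1.51] in the CD41low/CD9low pair. The first divided by the second was 1.30 [1.23 to 1.38], a difference in size beyond counting error that could not be tested against replicates. That quotient is not corrected for exon length. With the correction described below the ratios were 1.57 in HSCs and 1.41 in CD41low/CD9low HSCs, closer together than without it.

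The shared genotype effect on Cdk6 was a log2 difference of 0.70 (SE 0.15, adjusted p = 0.000278), and with filterByExpr the adjusted p was 0.0807. Ccnd1 and Cdk6 were thus the 2 genes of the set that passed this test under the 10-count minimum, 1 in each direction, and under filterByExpr none of the 10 did. At an unadjusted p under 0.05 the 10-count fit held the same number of the set, 2, against 10.8% of all genes fitted. Among the other 8 genes the adjusted p ran from 0.501 for Cdkn1b to 0.994 for Ccnd3. DESeq2 called both Ccnd1 (adjusted p = 0.0490) and Cdk6 (adjusted p = 0.00150).

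The exons of Cdk6 add up to 14.0 kb, the longest of the set, and in HSCs the KO/WT ratio drifted with exon length: 500 genes of like length had a median ratio of 1.19. Divided by that median, the ratio of Cdk6 in HSCs was 1.57. The 500 genes closest in length to Ccne1, with 2.66 kb of exons, had a median of 0.932, and its corrected ratio of 0.620 was no longer below 0.6. In CD41low/CD9low HSCs the medians at the lengths of the 10 genes ran only from 0.956 to 1.03.

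**Figure D2:**
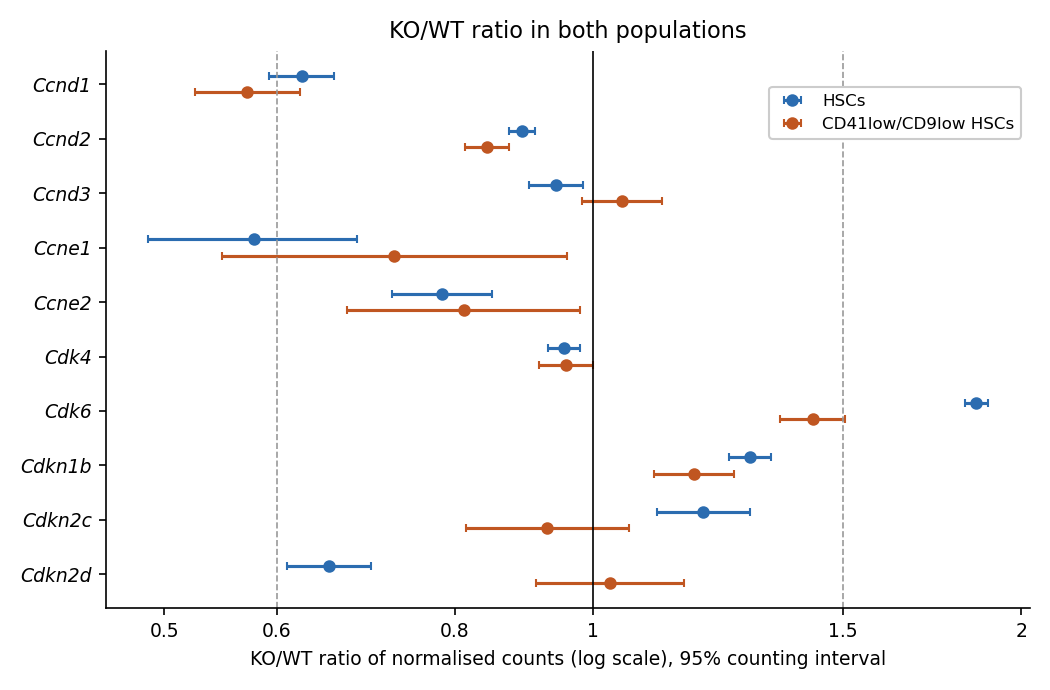
KO/WT ratio of normalised counts (log scale) in HSCs and CD41low/CD9low HSCs, with 95% counting intervals, a solid line at 1 and dashed lines at the cutoffs of 0.6 and 1.5. Ccnd1 lies near 0.6 in both populations, Cdk6 is the highest in both, and Cdkn2d is at 0.653 in the HSC pair and 1.03 in the CD41low/CD9low pair.

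The balance of the kinases, taken within each library and so free of scaling between libraries, differed with both genotype and population. It is not free of the drift with exon length in HSCs. There the median ratio of genes of like length was 1.19 for Cdk6, 0.937 for Cdk4 and 0.998 for Ccnd1. No quotient or share per length given here is corrected for this drift. Per length, Cdk6 was 0.339 of Cdk4 in HSC WT and 0.660 in HSC KO, and 0.141 and 0.210 in the CD41low/CD9low libraries. Of the summed level of both kinases, Cdk6 made up 25.3%, 39.8%, 12.4% and 17.4%. Per length, Cdk6 was 1.47 times cyclin D1 in HSC WT and 4.39 times in HSC KO, and 0.584 and 1.46 times in the CD41low/CD9low libraries. From WT to KO this quotient was 2.98-fold higher [2.82 to 3.15] in the HSC pair and 2.50-fold higher [2.26 to 2.76] in the other, with intervals for counting error. The CD41low/CD9low KO library thus had a Cdk6 to Ccnd1 ratio of 1.46, near the 1.47 of the HSC WT library.

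**Figure D3:**
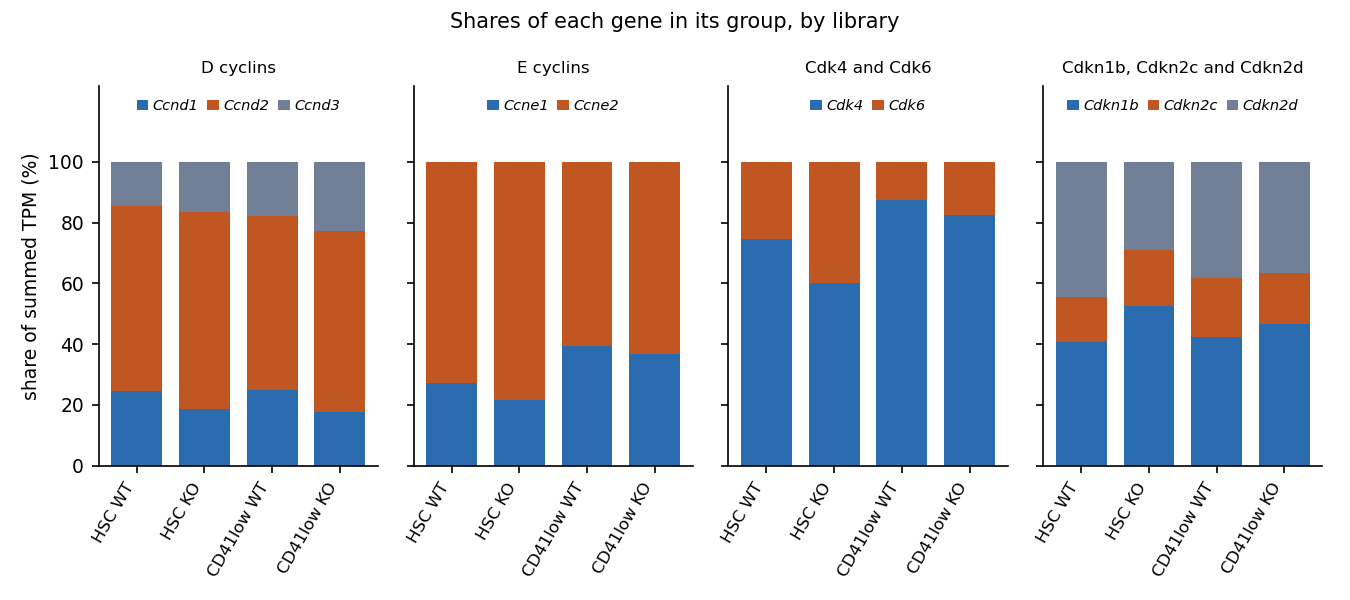
Share of each gene (%) in the summed TPM of its group, for D cyclins, E cyclins, Cdk4 with Cdk6, and the inhibitors, 1 bar per library. The share of Ccnd1 among D cyclins is lower, and that of Cdk6 among the kinases higher, in KO than in WT of both populations.

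Of the inhibitors, Cdkn1b was higher in KO of both populations, and the KO/WT ratios of Cdkn2c and Cdkn2d differed between populations beyond counting error. Cdkn1b (p27, chr6:134920401-134925513) was at 92.8, 122, 66.2 and 79.7 TPM, or 6449, 6738, 1457 and 2575 counts. Its KO/WT ratio was 1.29 [1.25 to 1.34] in the HSC pair and 1.18 [1.10 to 1.26] in the CD41low/CD9low pair, but the shared log2 difference of 0.30 (SE 0.16) did not pass the test (adjusted p = 0.501). Per length, Ccnd1 was 0.627 of Cdkn1b in HSC WT and 0.304 in HSC KO, and 0.790 and 0.383 in the CD41low/CD9low libraries. From WT to KO this quotient was multiplied by 0.484 [0.455 to 0.516] and 0.486 [0.437 to 0.540] in the respective populations.

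Cdkn2d (p19, chr9:21288410-21291407) had 2434 counts in HSC WT, 1287 in HSC KO, 453 in CD41low/CD9low HSC WT and 699 in CD41low/CD9low HSC KO, with levels of 101, 67.2, 59.6 and 62.6 TPM. HSC WT stood above the other 3 libraries, which lay close together. The KO/WT ratio was 0.653 [0.610 to 0.699] in the HSC pair and 1.03 [0.913 to 1.16] in the CD41low/CD9low pair, and the first divided by the second was 0.634 [0.554 to 0.727]. With 1.57 kb of exons it is the shortest gene of the set, and its length-corrected ratio in HSCs was 0.752. Cdkn2c (p18, chr4:109660876-109667189) was at 34.6, 42.1, 30.5 and 29.0 TPM, with KO/WT ratios of 1.20 [1.11 to 1.29] and 0.929 [0.815 to 1.06]. Cdkn2d was 2.93 times Cdkn2c per length in HSC WT and 1.60 times in HSC KO, against 1.95 and 2.16 times in the CD41low/CD9low libraries. Neither gene passed the test for a shared effect (adjusted p = 0.993 for Cdkn2c and 0.702 for Cdkn2d), and a difference of the effect between populations could not be tested with 1 library per group. The sum of the 3 inhibitors was 229, 231, 156 and 171 TPM.

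The 2 other Cip/Kip genes had fewer counts. Cdkn1a (p21) had 201, 98, 33 and 6 counts, with ratios of 0.602 [0.468 to 0.770] and 0.121 [0.0415 to 0.293], the second resting on 6 counts. Cdkn1c (p57) had 813, 284, 492 and 714 counts and ratios of 0.431 [0.375 to 0.494] in the HSC pair and 0.967 [0.861 to 1.09] in the CD41low/CD9low pair, so that its interval, like that of Cdkn2d, lay below 1 in HSCs and held 1 in the other population. The INK4 genes Cdkn2a (p16) and Cdkn2b (p15) were at or near 0, with at most 1 and 6 counts in any library.

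Between populations, 3 genes of the set differed by the same edgeR fit, which called 9.11% of genes higher and 13.7% lower in CD41low/CD9low HSCs. Cdk6 was lower by a log2 difference of -1.40 (SE 0.15, adjusted p = 9.92e-19), with CD41low/CD9low to HSC ratios of 0.430 [0.411 to 0.450] in WT and 0.335 [0.324 to 0.345] in KO. Ccne2 was lower by -0.94 (SE 0.25, adjusted p = 0.00195), with ratios of 0.509 [0.438 to 0.589] and 0.534 [0.463 to 0.614]. Ccnd3 was higher by 0.46 (SE 0.16, adjusted p = 0.0219), with ratios of 1.29 [1.22 to 1.37] and 1.46 [1.38 to 1.54]. With filterByExpr all of these passed at an adjusted p of 0.000133, 0.0171 and 0.0498, respectively, against 7.41% and 11.6% of genes called, while Ccnd3 did not pass with DESeq2 (adjusted p = 0.0675). Megakaryocyte and platelet markers were lower as Cdk6 and Ccne2 were, as given above, and their part in these differences was not tested. The CD41low/CD9low HSCs were sorted for low CD41 and CD9, while the sources differ on whether the HSCs were selected by these proteins. The libraries of the populations also differed in depth. The counts of the HSC pair cover 38293 genes and those of the CD41low/CD9low pair 41214, so the pairs were counted on different annotation. A difference between populations cannot be told apart from one of annotation by this fit.

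The genes around the set in the pathway were taken as lists and are given by counts. Of the Rb family and E2F factors, 0 of 13 passed the test for a shared genotype effect, and their median KO/WT ratio was 0.984 in the HSC pair and 0.958 in the CD41low/CD9low pair. The smallest unadjusted p among them was 0.0886 in the edgeR fit (E2f2), so 0 were under 0.05. Between populations 4 of the 13 passed, all lower in CD41low/CD9low HSCs: Rb1, Rbl1, E2f8 and Tfdp2, named after their values were seen, against 13.7% of all genes. With filterByExpr 3 of the 13 passed, against 11.6%, and Tfdp2 was at an adjusted p of 0.0512 in edgeR. Of the Foxo factors, which induce Cdkn1b, 0 of 3 passed for genotype (smallest unadjusted p in the edgeR fit, 0.159). Of Cdk2, cyclin A and the Cdk activators, 1 of 6 passed, against 1.19% of all genes called lower. This was Ccna2, the cyclin partner of Cdk2 in S phase (adjusted p = 0.0137 in the edgeR fit). Its ratio was 0.699 [0.672 to 0.728] in the HSC pair and 0.631 [0.579 to 0.687] in the CD41low/CD9low pair. Of the 10 genes for turnover of p27 and of cyclins E and D, 1 passed, against the same 1.19%. This was Cks1b, the cofactor with which Skp2 binds p27 (adjusted p = 0.0201 in the edgeR fit). Its ratios were 0.573 [0.533 to 0.616] and 0.643 [0.570 to 0.725].

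The genes transcribed further on in the cycle lay mostly below 1 in KO. Of 16 S-phase E2F target genes, 14 were below a KO/WT ratio of 1 in the HSC pair and 15 in the CD41low/CD9low pair, with medians of 0.806 and 0.747, against medians of 0.999 and 1.001 over all genes counted. The test, which called 1.19% of all genes lower, called 4 of these lower and 0 higher: Pcna, the sliding clamp of DNA polymerase, Orc1 and Cdc45, which act at replication origins, and the thymidine kinase Tk1. Of 12 mitosis genes all were below 1 in both populations, with medians of 0.695 and 0.733, and 5 were called lower: Cdk1, Aurka, Bub1, Cdc20 and Birc5. With filterByExpr, 0 of the genes in the lists for S phase, mitosis, turnover and Cdk2 were called for genotype. Genes of such a list share libraries and are not independent observations.

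Immediate-early genes, which respond within minutes to growth signals and to cell handling, had low KO/WT ratios in HSCs. All 22 were below 1 there, with a median of 0.311 and 19 below 0.6 (against 10.3% of all genes counted), while in CD41low/CD9low HSCs 11 of 19 counted were below 1, with a median of 0.827 and 4 below 0.6 (against 12.0%). The test for a shared effect called 14 of the 22 lower, against 1.19% of all genes, and 2 with filterByExpr, against 0.115%. The 14 include Egr1 and Klf6, whose ratios in CD41low/CD9low HSCs were 1.24 [0.986 to 1.56] and 1.24 [1.14 to 1.36]. They also include Atf3, with 0 and 1 counts in that pair. A call in this fit therefore does not mean that a gene was lower in both populations. Nr4a1, an orphan nuclear receptor, was at 0.184 and 0.355, the Kruppel-like factor Klf4 at 0.254 and 0.537, and Klf2 at 0.505 and 0.444. These were the 3 genes of the lists chosen by rule, as those furthest past the same cutoff in both populations. The ratio of Ccnd1, by comparison, was as low in CD41low/CD9low HSCs as in HSCs. The part of the immediate-early genes in the difference between populations was not tested.

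**Figure D4:**
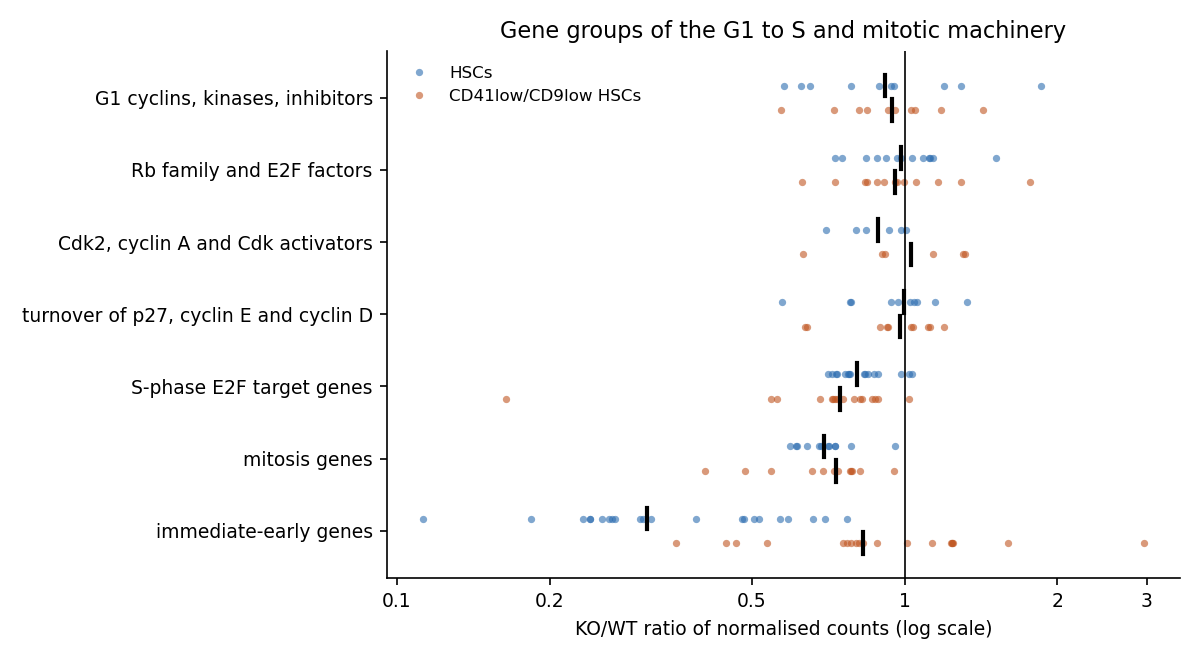
KO/WT ratio of normalised counts (log scale) for each gene of the set and of 6 lists, in HSCs and CD41low/CD9low HSCs, 1 point per gene, with black bars at the medians. The medians of the S-phase and mitosis genes lie below 1 in both populations, and that of the immediate-early genes is 0.311 in the HSC pair and 0.827 in the CD41low/CD9low pair.

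Some genes of the set share exons with a gene on the opposite strand. Ccnd1 overlaps LTO1 over 1100 bases of exon, Ccnd3 overlaps Bysl over 361, Ccne2 overlaps Ints8 over 609 and Cdk4 overlaps Tspan31 over 641. Ccnd2 overlaps 9330179D12Rik, which had at most 9 counts in any library, over 368 bases and ENSMUSG00000107379 over 372, and Cdk6 overlaps ENSMUSG00000106588 over 368. The counts of the last 2 were not used here. The library kit keeps the strand, but whether the counting used it is not given in the sources used here, so reads from the shared stretches cannot be assigned with certainty. LTO1 had 1323, 1091, 488 and 636 counts, fewer than Ccnd1 in each library. Ccnd3 also has a processed pseudogene, Ccnd3-ps, that could take or lose reads. Between members of a family the transcripts shared no run longer than 20 identical bases (Ccnd1 with Ccnd2, and Cdk4 with Cdk6).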

How the data were processed

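Messenger RNA of 4 sorted populations was sequenced with a stranded mRNA kit, 1 library per group. The deposited files hold whole-number counts per Ensembl gene. Per the submitters' processing notes the authors aligned reads to mm10 with TopHat2 2.0.10, used SAMtools, and counted with HTSeq. The HTSeq version, strand setting and annotation were not given in the sources used here. Reads on no gene were left out of library sizes and tests. Per 100 gene counts they were 80.0 in HSC WT and 105.3 in HSC KO, against 62.0 and 60.1 in the CD41low/CD9low WT and KO libraries. The genotypes thus differed in this mainly in the HSC pair, and its part in the ratios was not tested.

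Symbols, coordinates and merged exon lengths came from GENCODE M21 (GRCm38). TPM was computed from counts per kilobase of merged exon over genes in all 4 tables. KO/WT ratios used median-of-ratios size factors within each population, for genes that reached 10 counts in either library of the pair, with cutoffs of 1.5 and 0.6 and exact 95% intervals that cover counting error only. Tests used edgeR 4.0.16 (quasi-likelihood, TMM, R 4.3.3), with DESeq2 1.42.0 as an alternative and adjusted p under 0.05 as the threshold. The edgeR fit was also run on simulated counts with the same spread for every gene and no difference between populations. That run cannot check the fit where genes differ in spread. The counts as deposited cannot show spread between mice. Other alternatives were scaling, filters, cutoffs and a correction for exon length. All 10 genes are named, with Gfi1b, Cdkn1a and Cdkn1c, and at most 3 genes per list past the same cutoff in both populations. The genes and lists were chosen with earlier results of these data known. Genes named from the edgeR calls within lists were named after their values were seen. Megakaryocytes were not analysed here.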

Additional observations from a re-analysis of the deposited data

How the results depend on the processing

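The 10 genes had 120 recalculated KO/WT ratios under TMM, total counts, size factors from 4 libraries or from protein-coding genes, a pseudocount of 1, or a correction for exon length, and Cdk4 in HSCs alone crossed 1, from 0.955 to 1.02 under the exon-length correction. The 6 that moved past counting error were all in HSCs under the exon-length correction (Ccnd2, Ccnd3, Cdk4, Cdk6, Cdkn2c and Cdkn2d). That correction left 0 genes below the lower cutoff in HSCs, where Ccne1 was at 0.620. Cutoffs of 2 and 0.5 left 0 genes above and 0 below in HSCs, and 0 below in CD41low/CD9low HSCs, while a lower cutoff of 1/1.5 gave 3 below in HSCs (Ccnd1, Ccne1 and Cdkn2d). The shares of all genes past these other cutoffs were not computed. For the shared genotype effect, filterByExpr, chosen after seeing the data, called 0 of the 10 in place of 2. The adjusted p ran from 0.000175 to 0.0777 for Ccnd1 and from 0.000167 to 0.0807 for Cdk6 over the alternatives. Over all genes that fit called 457 with 10 counts, 240 with RLE size factors, 128 with 50 counts and 64 with filterByExpr, and the estimated prior degrees of freedom were infinite, 30.6, 14.0 and 10.3, respectively. The fit compares KO with WT within each population. No paired analysis by replicate number was possible because each group had 1 library and the labels carry no replicate numbers, and leaving out a library was not run, since it leaves no residual degrees of freedom. Depth limited Ccne1, Cdkn1a and other genes with few counts in the CD41low/CD9low libraries.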
